A study of Mus musculus with 82 samples.

Results

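The comparison of aortic vascular smooth muscle cells (aVSMC) after 24 h incubation with EGF and U46619 together against control cultures covers 12 of the 82 libraries of the series, 6 with both substances and 6 without. The samples were chosen by their labels, which give the incubation, its length and the mouse, and cultures of the same mouse number were paired. All genes outside chromosomes 9, X, Y and the mitochondrial chromosome were included, and 14528 of the 55401 genes in the tables could be tested. The series asks how the epidermal growth factor receptor (EGFR) acts together with the angiotensin II receptor AT1R and with the thromboxane receptor TP in these cells, by transcriptome sequencing of cultures that received EGF, angiotensin II or U46619 alone or in combination. The cells were primary aVSMC of C57BL/6 mice, 1 culture per mouse and condition, and no genetic modification is named for any group. All cultures were grown in medium with serum, insulin, hydrocortisone and EGF (10 µg/L), and were kept in medium without serum or supplements for 24 h before the stimuli. Control cultures then stayed in that medium for 24 h, and the other group received EGF (10 µg/L) and U46619 (1 µM) in it. Further groups used below received EGF alone or U46619 alone at the same doses, from the same 6 mice. The age and sex of the mice are not given in the sources used here.

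EGF binds EGFR, a receptor tyrosine kinase that activates the Ras and ERK cascade and is a growth stimulus for cultured smooth muscle cells. U46619 is a stable analogue of thromboxane A2 that activates TP, a receptor coupled to Gq and G12/13 proteins, which raise intracellular calcium and, through RhoA, assemble actin fibres. Actin assembly releases the MRTF cofactors that bind serum response factor (SRF) at contractile genes, and it allows the cofactors YAP and TAZ to bind TEAD factors at genes of cell growth and matrix. In the aorta, smooth muscle cells hold a quiescent contractile state, and in culture or after injury they can take up a proliferating and matrix-producing state with fewer contractile proteins.

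The 12 libraries held 19170622 to 20594473 counts each, with similar totals in both groups. Levels are given as FPM, fragment counts scaled to each library's size with TMM factors, which compare a gene between libraries but not 1 gene with another, as they are not divided by gene length. A gene was called a DEG where DESeq2 and the quasi-likelihood test of edgeR each gave an FDR (Benjamini-Hochberg adjusted p) under 0.05 and either group averaged 5 FPM or more. By this rule 32% of the genes tested were DEG, 16.2% higher and 15.8% lower in EGF+U46619 than in control cultures, the background against which the members of a gene list can be read. Log2-fold changes, their standard errors (SE) and the FDR printed are those of edgeR. Ratios within a mouse are log2 of FPM plus a pseudocount of 0.5, EGF+U46619 minus control.

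The cultures of mouse 6 stood apart. Of the 4655 DEG, 95.8% to 99.3% changed in the common direction in each of mice 1 to 5, and 65.0% did in mouse 6, where the median change towards that direction was 0.13 on the log2 scale against 0.55 to 1.19 in the other mice. The summed level of 10 endothelial markers was 2699 FPM in the control culture and 3097 FPM in the EGF+U46619 culture of mouse 6, and 108 to 1022 FPM in the other 10 libraries. Of 9 tested markers 1 was called (lower). Pecam1 reached 864 FPM in control and 919.7 FPM in EGF+U46619 cultures and Emcn 598 and 742 FPM. The endothelial cadherin gene Cdh5 was listed at 0 in all 12 libraries. Whether Cdh5 was absent from the cells or only from the counts was not tested. Egfr was lowest in the cultures of mouse 6, at 20.2 FPM in the control culture and 28.1 FPM in the EGF+U46619 culture. Without mouse 6 there were 4839 DEG, 2486 higher and 2353 lower, of which 4386 were among the 4655. The part of these differences in the results below was not tested.

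Of the markers of smooth muscle, 4 of 10 were DEG higher and 1 lower, and their summed level was 2208 to 8702 FPM in control and 3091 to 21280 FPM in EGF+U46619 cultures. Acta2 was the largest part of these sums, averaging 2602 FPM in control and 8154 FPM in EGF+U46619 cultures. Mylk, Des and Myh11 had log2-fold changes of −1.10, −0.71 and −0.28, and those of the other members were above 0. Of 11 tested markers of adventitial fibroblasts, 8 were DEG lower and 1 higher, and their sum was 752 to 3686 FPM in control and 268 to 1379 FPM in EGF+U46619 cultures. Dcn was the largest part, averaging 709 FPM in control and 198 FPM in EGF+U46619 cultures. In mouse 6 the fibroblast sum was 868.9 FPM in the control culture and 894.7 FPM in the EGF+U46619 culture. Markers of macrophages and leukocytes summed to 25.9 to 128 and 27.2 to 67.4 FPM, with Ptprc, Itgam, C1qa and Tyrobp listed at 0 in all 12 libraries. Mesothelial and epithelial markers summed to 0.838 to 989 and 1.81 to 745 FPM, with Cdh1 listed at 0 and the highest sums in mice 3 and 5. Whether the genes listed at 0 were absent from the cells or only from the counts was not tested. In bulk RNA, fewer cells of a type and less RNA of that type per cell cannot be told apart.

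With both substances together 2360 genes rose and 2295 fell. The median absolute log2-fold change of the DEG was 0.755, and 680 rose and 784 fell by at least 1 on the log2 scale. At least 3 on that scale was reached by 17 of the genes that rose and 40 of those that fell. The change had the same sign in 6 of 6 mice for 2615 DEG and in 5 of 6 for 1866. Over all 14528 genes tested, DEG or not, 3604 had the same sign in 6 of 6 mice. The FPM ranges of the 2 groups did not overlap for 467 DEG, 293 of them higher, among 551 such genes (3.79%) of all tested. Among the largest rises that held in all 6 mice were Serpinb2, Ankrd1, H2-M1, Crct1, Vgf, Ptgs2, H2-M9, Npnt, Spp1 and Fosl1. The largest such falls were in Lrrc17, Scara5, Slc7a8, Ggt5, Adh1, Palm3, Sult1a1, Fbln7, Misp3, Fxyd1, Fmo1 and Ccdc3. The calls of H2-M9 (without mouse 5), Slc7a8 (mouse 1 or 2), Palm3 (mouse 2) and Misp3 (mouse 1) were lost when a single mouse was left out. A call can be lost by its FDR or by the FPM minimum, and these were not told apart, here or below.

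**Figure D1:**
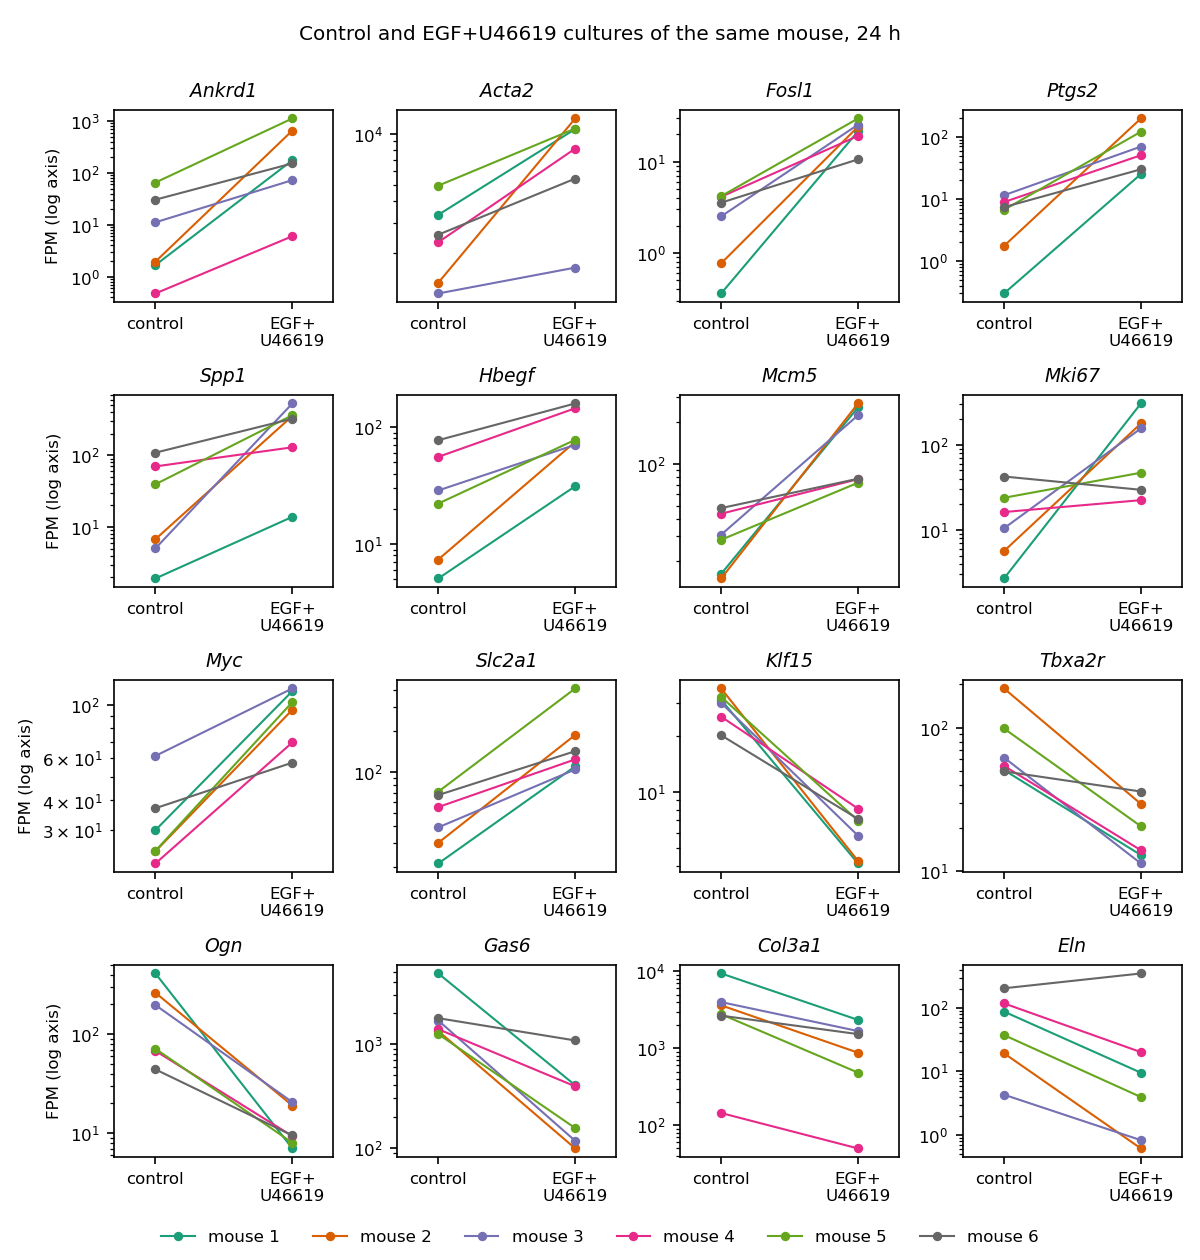
FPM on a log axis of 16 genes in the control and EGF+U46619 culture of each mouse, 1 line per mouse (n = 6). Every line rises for Ankrd1, Acta2, Fosl1, Ptgs2, Spp1, Hbegf, Mcm5, Myc and Slc2a1 and falls for Klf15, Tbxa2r, Ogn, Gas6 and Col3a1, while the lines of Mki67 and Eln do not all share a direction.

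The genes of the receptors themselves did not follow a common course. Egfr was at 20.2 to 227 FPM (median 145) in control and 28.1 to 164.5 FPM (median 109.9) in EGF+U46619 cultures, with a log2-fold change of −0.23 (FDR = 0.452), and was no DEG. Tbxa2r, which encodes TP, was at 49.5 to 187.6 FPM (median 57.96) in control and 11.3 to 35.8 FPM (median 17.2) in EGF+U46619 cultures, and fell without overlap of the groups (log2-fold change −1.98, SE 0.329, FDR = 2.60e-05). Of 14 tested genes for EGFR ligands, receptors and their shedding, 2 rose and 1 fell, shares below those over all genes, and both rises were in ligands. Hbegf, the heparin-binding ligand that is shed from the cell surface, went from a median of 25.5 FPM (5.09 to 77.4) to one of 76.5 FPM (31.3 to 159.4) (log2-fold change 1.93, SE 0.346, FDR = 5.98e-05). Ereg, the ligand epiregulin, was at 2.52 to 25.9 FPM (median 9.93) and 15.3 to 68.3 FPM (median 43.004) (log2-fold change 2.08, SE 0.296, FDR = 3.63e-06). Rhbdf1, an inactive rhomboid that assists ligand shedding, fell (log2-fold change −0.42, FDR = 0.0232), a call that was lost without mouse 3, 4 or 5. The ligand Areg had a log2-fold change of 1.39 (FDR = 0.105) and was no DEG.

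Of 16 tested genes for prostanoid synthesis and prostanoid receptors, 4 were DEG higher, all of them enzymes, and 2 DEG lower, both of them receptors. Further members, named after their values were seen, had an FDR under 0.05 in edgeR but were no DEG. Of these the enzymes Ptgds, Hpgd and Ptges were lower (log2-fold changes −2.50, −1.23 and −0.99) and Tbxas1 was higher (2.00). The receptors Ptger3 and Ptger1 were lower (log2-fold changes −3.21 and −1.17). Ptgs2, the inducible cyclooxygenase, was at 0.299 to 11.4 FPM (median 7.01) in control and 25.1 to 198 FPM (median 60.1) in EGF+U46619 cultures, so that the lowest stimulated culture lay above the highest control culture (log2-fold change 3.93, SE 0.722, FDR = 7.93e-05). Pla2g4a, the phospholipase that releases arachidonic acid for it, also rose (log2-fold change 1.47, FDR = 6.49e-04). Ptgir, the prostacyclin receptor, fell as Tbxa2r did, from a median of 10.3 FPM (4.46 to 25.97) to one of 2.91 FPM (1.29 to 7.24) (log2-fold change −1.67, SE 0.420, FDR = 0.00195). The other DEG that rose, named after their values were seen, were the constitutive cyclooxygenase gene Ptgs1 (log2-fold change 0.66, FDR = 4.38e-04) and Ptges3 (log2-fold change 0.72, FDR = 0.00121). Receptors for other vasoactive mediators had 2 of 26 tested members higher and 6 lower. The adenosine receptor Adora2a and the endothelin receptor Ednra fell (log2-fold changes −3.18, FDR = 2.08e-04 and −1.60, FDR = 4.93e-04). The purinergic receptor P2ry2 and the thrombin receptor F2r rose (log2-fold changes 1.09, FDR = 5.28e-06 and 0.89, FDR = 7.25e-04). Of the regulators that end G protein signals, Rgs5 and Rgs2 fell (log2-fold changes −2.64, FDR = 4.13e-05 and −1.64, FDR = 7.65e-04) and Rgs16 and the receptor kinase gene Grk6 rose (log2-fold changes 1.84, FDR = 5.66e-04 and 0.86, FDR = 3.28e-05). The call of Rgs2 was lost without mouse 6.

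Genes of the contractile apparatus moved unequally. Acta2, which encodes smooth muscle alpha-actin and lies on chromosome 19, 34241090 to 34255590 of GRCm38, was at 1149 to 4949 FPM (median 2424) in control and 1631 to 12297 FPM (median 9416) in EGF+U46619 cultures. The groups overlapped, but the stimulated culture was higher in every mouse (log2-fold change 1.62, SE 0.388, FDR = 0.00127). Actg2, the gamma-actin of smooth muscle, and Tes, a protein of focal adhesions, rose as well (log2-fold changes 2.22, FDR = 8.56e-05 and 1.71, FDR = 1.29e-04). Reads that align to several places were counted, so the 2 actin genes, which are alike in their coding sequence, can share counts. Myh11, the smooth muscle myosin heavy chain, was at 2.68 to 90.9 FPM (median 43.6) in control and 1.43 to 213 FPM (median 26.5) in EGF+U46619 cultures, with a log2-fold change of −0.28 (FDR = 0.669), and was no DEG. Its highest stimulated value was that of mouse 2, the only mouse in which it was higher. Mylk, the kinase that starts contraction by phosphorylating myosin light chains, and Itga8, an integrin of contractile smooth muscle, fell (log2-fold changes −1.10, FDR = 0.0329 and −1.07, FDR = 0.0189). Of 25 tested members of the list, 8 rose and 3 fell, and the median log2-fold change was 0.34 beside −0.05 over all genes tested. None of the 3 falls was a DEG without mouse 2 or without mouse 5, and Mylk also lost its call without mouse 3 or 4. Markers of adventitial fibroblasts and of smooth muscle moved beside these genes, as given above.

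Of 22 tested targets and partners of YAP and TEAD, 8 rose and 0 fell, and Ankrd1 had the second of the largest rises listed above. Ankrd1, a cardiac and smooth muscle ankyrin repeat protein, was at 0.475 to 65.4 FPM (median 6.57) in control and 6.04 to 1124 FPM (median 164.3) in EGF+U46619 cultures (log2-fold change 4.51, SE 0.739, FDR = 2.10e-05). Its within-mouse ratios were 6.34, 8.07, 2.65, 2.74, 4.09 and 2.30 in mice 1 to 6, so that it was higher in each, while the level in control cultures differed over a wide range. Ccn2, a matricellular protein also known as connective tissue growth factor, went from a median of 993 FPM (104.3 to 2395) to one of 4775 FPM (561 to 6241) (log2-fold change 2.32, SE 0.485, FDR = 3.28e-04). Ccn1, its relative, rose (log2-fold change 1.22, FDR = 0.00698). The median log2-fold change of the list was 0.19. There were 7 rises and 1 fall without mouse 1, 7 rises and 0 falls without mouse 2, and 9 rises and 2 falls without mouse 6.

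To show letters that the factors named here are known to bind, 250 bases before the start of 6 genes that rose are printed, from RefSeq promoters on GRCm38.p6, 5′ to 3′ on the strand of the gene. The 6 were chosen after the matches were seen, 1 or 2 for each factor, and Srf, Mcm6, Cdk1 and Plaur stand outside the rule for the genes named here. Capitals mark the matches of 1 motif per gene, on either strand: GGAATG (TEAD) in Ankrd1, the CArG box of SRF in Srf itself, TTTCCCGC or TTTGGCGC (E2F) in Mcm5 and Mcm6, CCAAT (NF-Y) in Cdk1, and TGANTCA (AP-1) in Plaur. No marked match overlapped a match of another motif searched. A match describes the letters only and is not a site of binding.
Ankrd1: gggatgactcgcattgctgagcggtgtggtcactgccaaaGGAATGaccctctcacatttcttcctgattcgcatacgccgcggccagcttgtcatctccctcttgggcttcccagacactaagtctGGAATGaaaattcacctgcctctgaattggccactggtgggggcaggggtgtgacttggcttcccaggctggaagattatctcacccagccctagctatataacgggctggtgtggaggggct
Srf: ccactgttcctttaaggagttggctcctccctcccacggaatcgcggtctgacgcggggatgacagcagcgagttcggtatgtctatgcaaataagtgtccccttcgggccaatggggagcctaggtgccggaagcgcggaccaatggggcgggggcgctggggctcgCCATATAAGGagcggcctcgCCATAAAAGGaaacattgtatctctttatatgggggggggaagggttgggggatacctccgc
Mcm5: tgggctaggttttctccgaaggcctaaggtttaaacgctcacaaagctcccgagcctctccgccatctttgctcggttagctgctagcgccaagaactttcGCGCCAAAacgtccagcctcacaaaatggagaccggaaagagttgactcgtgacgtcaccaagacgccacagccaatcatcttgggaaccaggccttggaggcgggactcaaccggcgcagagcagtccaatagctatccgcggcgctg
Mcm6: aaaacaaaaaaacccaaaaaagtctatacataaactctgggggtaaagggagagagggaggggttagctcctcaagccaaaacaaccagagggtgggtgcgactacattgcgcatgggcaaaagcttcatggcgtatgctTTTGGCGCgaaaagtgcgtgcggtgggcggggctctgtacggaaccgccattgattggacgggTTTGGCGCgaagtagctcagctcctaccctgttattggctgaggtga
Cdk1: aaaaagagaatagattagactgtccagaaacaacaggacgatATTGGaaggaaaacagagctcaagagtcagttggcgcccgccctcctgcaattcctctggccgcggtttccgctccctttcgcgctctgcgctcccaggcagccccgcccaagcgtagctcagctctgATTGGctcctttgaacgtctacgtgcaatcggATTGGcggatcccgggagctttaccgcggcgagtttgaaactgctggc
Plaur: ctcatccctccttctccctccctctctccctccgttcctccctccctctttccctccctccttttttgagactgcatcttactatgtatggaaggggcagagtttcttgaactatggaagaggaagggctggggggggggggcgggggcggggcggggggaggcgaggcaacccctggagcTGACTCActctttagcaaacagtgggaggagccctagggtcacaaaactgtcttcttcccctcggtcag
The windows are chr19:36119845-36120094 (minus strand), chr17:46556163-46556412 (minus), chr8:75109259-75109508 (plus), chr1:128359706-128359955 (minus), chr10:69352913-69353162 (minus) and chr7:24462233-24462482 (plus). The shares below are over windows of 300 bases that also take in 50 bases after the start, 32851 windows in all, and genes can have several. The TEAD letters were in 61.9% of the 21 windows of the tested YAP and TEAD targets and in 14.7% of all windows. The CArG box was in 20.7% of 29 windows of the contractile list and in 1.63% of all. The E2F letters were in 21.7% of 46 windows of the DNA replication list against 1.56% of all, and CCAAT in 76.9% of 39 windows of the spindle list against 37.4%. CCAAT was also in 89.5% of 19 windows of the endoplasmic reticulum chaperone list and in 75% of 20 windows of the circadian clock list. Over all genes tested the E2F letters were in 2.63% of windows, against 4.77% among the DEG that rose and 1.56% among those that fell. In the same order the TEAD letters were in 12.5%, 11.7% and 14.0%, the AP-1 letters in 5.57%, 4.68% and 5.69%, the CArG box in 1.27%, 1.41% and 1.10%, and CCAAT in 37.5%, 41.2% and 37.1%. The AP-1 letters were in 6 of 15 windows of the fibrinolysis and coagulation list and in 7.81% of all. These windows belong to 11 genes, and the list had the highest AP-1 share of the 41 lists.

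Feedback inhibitors of ERK rose more often than they fell, and so did factors of the AP-1 and ETS families. Of 19 tested feedback inhibitors of ERK and EGFR, 10 rose and 1 fell, with a median log2-fold change of 0.57. Dusp5 and Dusp4, phosphatases that inactivate ERK in the nucleus, rose (log2-fold changes 1.81, FDR = 1.19e-05 and 1.74, FDR = 1.32e-04), and so did Dusp6, the cytoplasmic one (log2-fold change 1.08, FDR = 0.00596). Spry1, a Sprouty inhibitor of receptor tyrosine kinases, fell from a median of 72.8 FPM (55.3 to 119) to one of 22.95 FPM (20.5 to 62.1) (log2-fold change −1.49, SE 0.233, FDR = 1.29e-05), while its relative Spry4 had a log2-fold change of 0.42 (FDR = 0.510) and was no DEG. Of 21 tested genes in a list of AP-1, EGR, ETS and other early response genes, 10 rose and 0 fell. The rises were in 5 of 10 AP-1 and MAF factors, 3 of 5 ETS factors and 2 genes that belong to none of these families, Ier3 and Phlda1 (log2-fold changes 1.03, FDR = 0.00246 and 1.77, FDR = 1.09e-04), named after their values were seen. Egr1, Egr2 and Egr3, the 3 EGR factors tested, were no DEG. Fosl1, the AP-1 factor Fra-1, which is made later than Fos after a growth stimulus, went from a median of 3.04 FPM (0.359 to 4.20) to one of 23.01 FPM (10.6 to 29.9) without overlap (log2-fold change 3.21, SE 0.560, FDR = 4.42e-05). The ETS factor gene Etv4 rose (log2-fold change 1.87, FDR = 0.00208).

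The genes of DNA replication rose as a whole list. All 49 tested of 52 listed were DEG higher, 38 of them in every mouse and 18 without overlap of the groups, and the median log2-fold change was 1.47. Mcm5, a subunit of the replicative helicase, was at 14.99 to 47.9 FPM (median 29.6) in control and 72.9 to 269.9 FPM (median 150.1) in EGF+U46619 cultures (log2-fold change 2.01, SE 0.432, FDR = 4.36e-04), so that every stimulated culture lay above every control culture. Mcm10, which activates that helicase, went from a median of 3.61 FPM (0.770 to 7.74) to one of 25.2 FPM (11.5 to 44.6) (log2-fold change 2.52, SE 0.507, FDR = 2.15e-04). Orc1, which marks origins of replication, went from a median of 0.751 FPM (0.419 to 1.64) to one of 4.56 FPM (1.96 to 18.2) (log2-fold change 2.50, SE 0.433, FDR = 4.14e-05). The call of Orc1, whose median of 4.56 FPM in EGF+U46619 cultures lay near the minimum of 5 FPM, was lost without mouse 2. Without that mouse 40 of the 49 genes were called.

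Genes of the spindle and of mitotic entry rose in number almost as often but varied far more between mice. Of 46 tested genes 42 rose and 1 fell, with a median log2-fold change of 1.75. The median log2 ratio of the list was 4.99, 3.72, 3.65, −0.07, 0.53 and −0.27 in mice 1 to 6, whereas that of the DNA replication list was 2.80, 2.40, 2.102, 0.41, 0.86 and 0.22. Mki67, a marker of cycling cells, was at 2.70 to 42.3 FPM (median 13.3) in control and 22.3 to 305 FPM (median 101.03) in EGF+U46619 cultures (log2-fold change 2.20, SE 0.640, FDR = 0.00648), with ratios of 6.58, 4.86, 3.83, 0.45, 0.96 and −0.51 in mice 1 to 6. It was higher in 5 of 6 mice, and mouse 6 was the exception. Without mouse 3 the number of spindle genes that were DEG higher was 9 in place of 42, and Mki67 was not among the DEG. Bub1, a kinase of the spindle checkpoint, rose (log2-fold change 2.40, FDR = 0.00418), and Pttg1, the securin, was the member that fell (log2-fold change −0.76, FDR = 0.00757), a call lost without mouse 1.

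**Figure D2:**
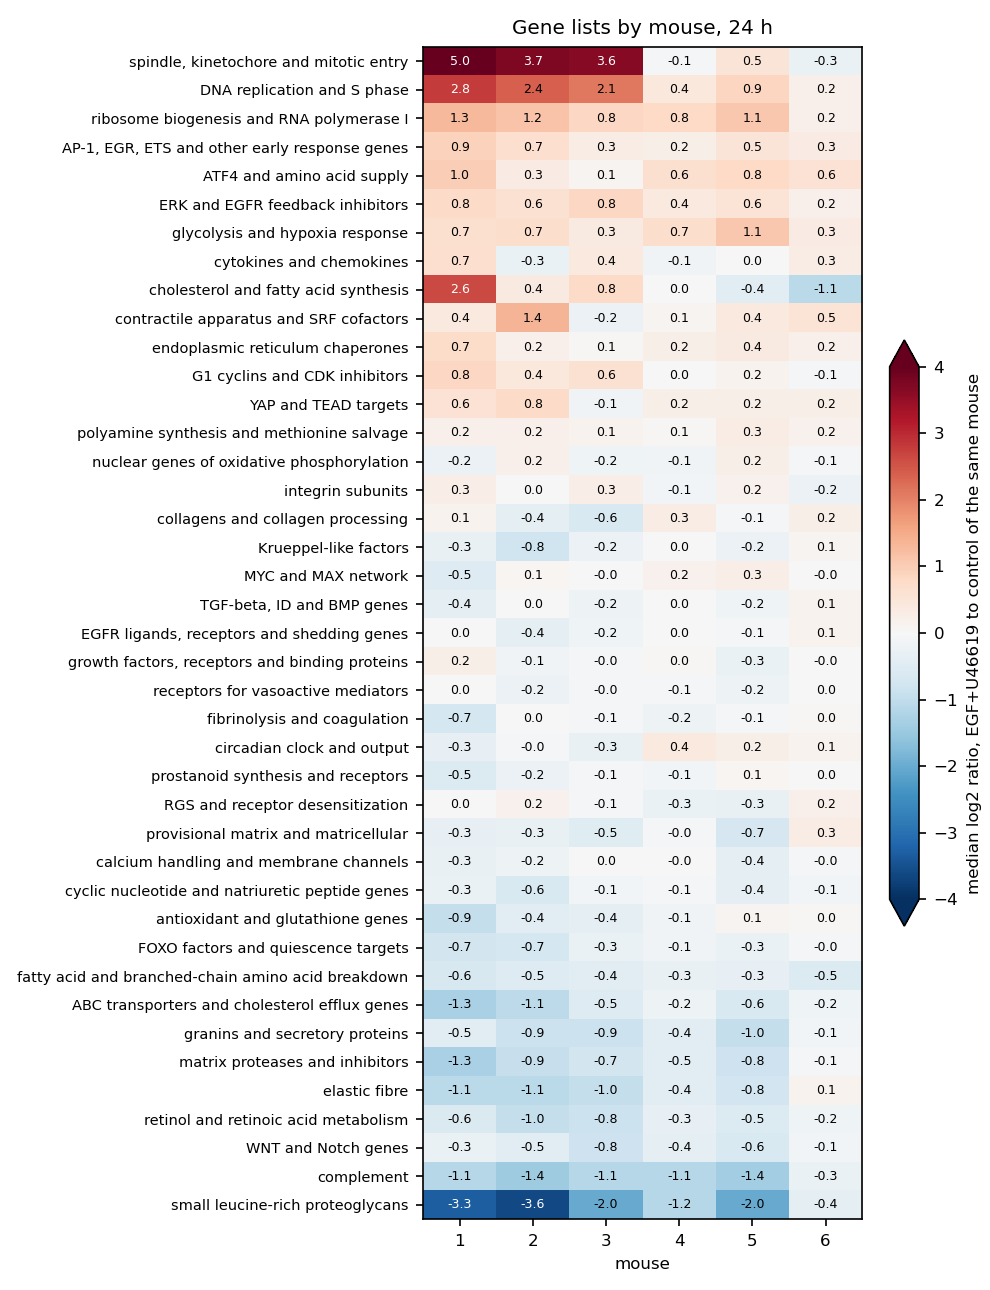
Median within-mouse log2 ratio (EGF+U46619 over control, log2 of FPM + 0.5) of each gene list, 1 column per mouse, red for higher and blue for lower. The spindle list is between 3.65 and 4.99 in mice 1, 2 and 3 and between −0.27 and 0.53 in mice 4, 5 and 6, and the ribosome biogenesis list is above 0 in all 6.

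Cyclins, kinases, inhibitors and E2F and RB factors of the G1 phase had 8 of 22 tested members higher and 5 lower. Ccne2, the cyclin that starts S phase, and E2f8, a repressor of the E2F family, rose (log2-fold changes 2.16, FDR = 6.59e-04 and 2.02, FDR = 0.00516). Cdkn1b, the inhibitor p27 that is high in quiescent cells, fell from a median of 125 FPM (70.9 to 233) to one of 71.6 FPM (52.0 to 95.3) in all 6 mice (log2-fold change −0.93, SE 0.134, FDR = 4.33e-06). Cdkn2a and Cdkn2b, neighbouring genes of the INK4 inhibitors, fell (log2-fold changes −1.05, FDR = 0.00429 and −0.95, FDR = 0.0132), the call of Cdkn2b being lost without mouse 2, 4 or 5, and without mouse 2 the list had 2 falls. The inhibitor gene Cdkn1a had a log2-fold change of −0.09 (FDR = 0.639). Ccnd1, the cyclin that growth factors induce, had one of 0.64 (FDR = 0.0455) and was higher in 6 of 6 mice, but did not pass in DESeq2 and was no DEG.

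Of 46 tested genes for making ribosomes, 43 rose and 0 fell, with 35 higher in every mouse, a median log2-fold change of 0.91 and list medians of 1.31, 1.15, 0.82, 0.81, 1.08 and 0.20 in mice 1 to 6. Leaving out any 1 mouse gave 42 or 43 calls. Nop58, a core protein of box C/D small nucleolar particles, went from a median of 37.3 FPM (26.1 to 68.8) to one of 131 FPM (44.9 to 154.05) (log2-fold change 1.45, SE 0.253, FDR = 4.52e-05), and Ddx21, a nucleolar helicase, rose (log2-fold change 1.35, FDR = 4.99e-06). Myc, the factor known to drive these genes, was at 21.8 to 61.4 FPM (median 27.4) in control and 57.6 to 118 FPM (median 99.4) in EGF+U46619 cultures (log2-fold change 1.54, SE 0.241, FDR = 1.29e-05). Its relative Mycl rose (log2-fold change 1.77, FDR = 0.00344), and the antagonists Mxd4 and Mxd1 fell (log2-fold changes −1.28, FDR = 2.35e-04 and −0.70, FDR = 4.97e-04). Max, named after its value was seen, also fell (log2-fold change −0.28, FDR = 0.0350). Of 13 tested members of the network 2 were higher (15.4%) and 3 lower (23.1%), beside 16.2% and 15.8% over all genes tested. Odc1 and Amd1, enzymes of polyamine synthesis, rose (log2-fold changes 1.32, FDR = 3.79e-05 and 1.16, FDR = 2.54e-04), among 7 higher and 3 lower of 18 in their list. The elongation factor gene Eef2 had a log2-fold change of −0.47 (FDR = 0.0551) and was no DEG.

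Genes of amino acid supply and of glycolysis rose more often than they fell. Of 29 tested ATF4 and amino acid supply genes, 17 rose and 3 fell. Mthfd1l, a mitochondrial enzyme of one-carbon metabolism, went from a median of 20.6 FPM (13.5 to 27.8) to one of 116 FPM (50.7 to 141) without overlap (log2-fold change 2.23, SE 0.271, FDR = 6.00e-07). Slc7a11, the cystine transporter, rose (log2-fold change 2.099, FDR = 4.57e-05) and the factor gene Atf5 fell (log2-fold change −0.87, FDR = 0.00626), a call lost without mouse 1. Of 33 tested glycolysis and hypoxia genes, 18 rose and 3 fell, with a median log2-fold change of 0.54. Slc2a1, the glucose transporter GLUT1, was at 21.1 to 71.5 FPM (median 47.1) in control and 104.3 to 413 FPM (median 133) in EGF+U46619 cultures, again without overlap (log2-fold change 1.88, SE 0.275, FDR = 5.66e-06). Hk2, the inducible hexokinase, and Slc16a3, which exports lactate, rose (log2-fold changes 2.37, FDR = 4.10e-05 and 2.03, FDR = 8.28e-05). So did the lactate dehydrogenase gene Ldha and Gapdh, often taken as a constant reference (log2-fold changes 1.43, FDR = 6.72e-06 and 1.21, FDR = 9.12e-05), where processed pseudogenes can share the reads of Gapdh. Adm and Ndrg1, genes known to respond to hypoxia, fell (log2-fold changes −1.65, FDR = 8.35e-04 and −0.97, FDR = 0.0146), Ndrg1 losing its call without mouse 3.

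Fatty acid and branched-chain amino acid breakdown went the other way, with 22 of 37 tested members lower and 2 higher. Acaa2, an enzyme of mitochondrial beta-oxidation, and Aldh6a1, an enzyme of valine breakdown, fell (log2-fold changes −1.44, FDR = 2.12e-05 and −1.41, FDR = 3.05e-05), whereas the cytosolic aminotransferase gene Bcat1 rose (log2-fold change 1.81, FDR = 1.32e-06). Genes of cholesterol and fatty acid synthesis had 2 of 31 tested members higher, among them Elovl6, which lengthens fatty acids (log2-fold change 1.14, FDR = 0.00565), a call lost without mouse 1. The list's median ratio was 2.64, 0.37, 0.77, 0.02, −0.44 and −1.06 in mice 1 to 6. Without mouse 6 the number of members called higher was 10. Without mouse 1 it was 0, with 2 members called lower and a median log2-fold change of 0.009 in place of 0.37. In the lists of cholesterol and fatty acid synthesis, EGFR ligands, receptors and shedding, oxidative phosphorylation and the circadian clock, the shares of members that rose and of members that fell were both below those over all genes tested.

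**Figure D3:**
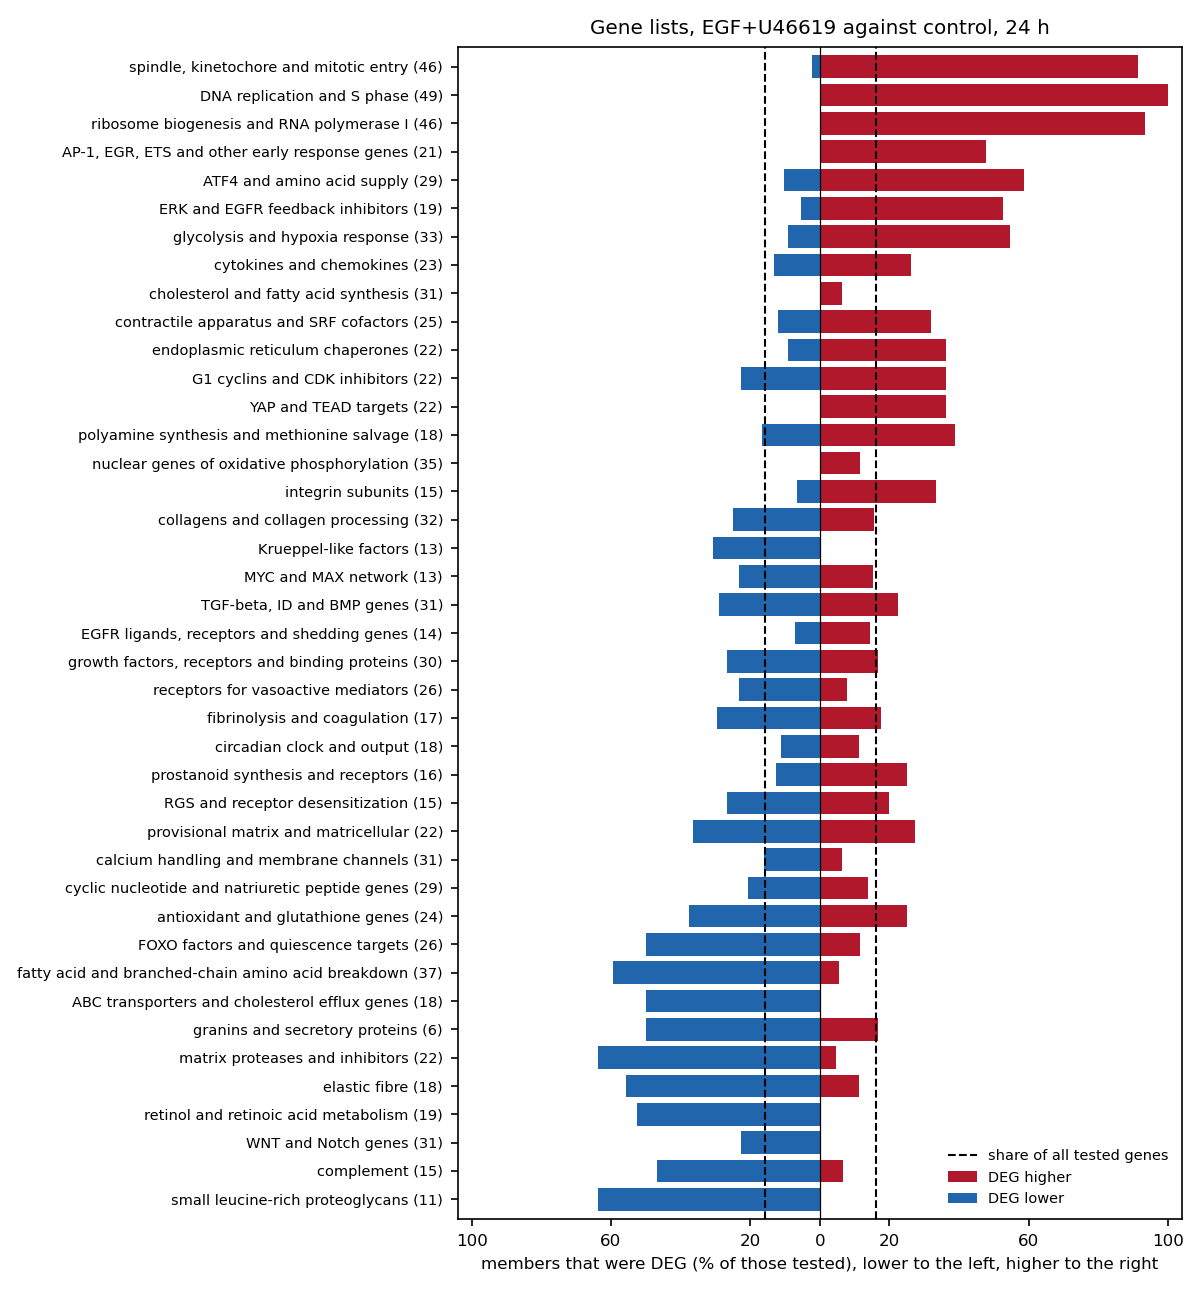
Percent of tested members of each gene list that were DEG higher (right) or lower (left) in EGF+U46619 against control cultures, with dashed lines at the share over all 14528 genes tested (16.2% higher, 15.8% lower). DNA replication reaches 100% higher and the small leucine-rich proteoglycans have 7 of 11 members lower and 0 higher.

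Small leucine-rich proteoglycans, which bind and space collagen fibrils, had the lowest median log2-fold change of the 41 gene lists. Of 11 tested members 7 fell and 0 rose, and the median was −2.39, with within-mouse medians of −3.29, −3.60, −2.02, −1.15, −2.01 and −0.35 in mice 1 to 6. Ogn, osteoglycin, was at 44.2 to 411 FPM (median 134) in control and 7.02 to 20.6 FPM (median 9.43) in EGF+U46619 cultures (log2-fold change −3.49, SE 0.439, FDR = 8.23e-07). Aspn, asporin, went from a median of 15.8 FPM (9.32 to 40.6) to one of 1.68 FPM (0.690 to 3.15) (log2-fold change −3.48, SE 0.438, FDR = 8.23e-07), and neither gene's groups overlapped. The proteoglycans Lum and Dcn belong to this list and to the adventitial fibroblast markers, of which 8 of 11 fell, and the part of the fibroblast markers in this result was not tested.

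Collagen and elastic fibre genes fell more often than they rose. Col3a1 went from a median of 3196 FPM (144 to 9391) to one of 1204 FPM (50.02 to 2340.3) and was lower in 6 of 6 mice (log2-fold change −1.67, SE 0.291, FDR = 4.31e-05), while Col1a1 had a log2-fold change of −0.27 (FDR = 0.354) and was no DEG. Col6a1 and Col14a1 fell (log2-fold changes −1.88, FDR = 1.12e-04 and −1.85, FDR = 1.63e-04), and Loxl3, a lysyl oxidase that cross-links collagen, rose (log2-fold change 1.17, FDR = 4.15e-04). Of 19 tested collagen genes 2 rose and 7 fell, and of 13 enzymes and chaperones that process collagen 3 rose and 1 fell. The collagen genes that rose were 3 without mouse 3 and 0 without any other single mouse, and the processing genes that rose were 2 without mouse 1 or 4 and 5 without mouse 3. Eln, elastin, was at 4.31 to 203 FPM (median 62.4) in control and 0.614 to 348 FPM (median 6.75) in EGF+U46619 cultures (log2-fold change −2.09, SE 0.589, FDR = 0.00516). It was lower in 5 of 6 mice, and 10 of 18 elastic fibre genes fell. Mfap4 and Fbln7, proteins that bind elastic fibres, fell (log2-fold changes −3.47, FDR = 1.57e-06 and −3.64, FDR = 6.99e-08), the first call being lost without mouse 1, and the latent TGF-beta binders Ltbp2 and Ltbp1 rose (log2-fold changes 1.55, FDR = 0.00411 and 1.25, FDR = 3.86e-04).

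Genes of the provisional matrix that cells lay down in wounds were divided, with 6 of 22 tested higher and 8 lower. Spp1, osteopontin, a secreted protein of stimulated smooth muscle cells, was at 1.92 to 109 FPM (median 23.2) in control and 13.9 to 531 FPM (median 340.3) in EGF+U46619 cultures (log2-fold change 3.23, SE 0.732, FDR = 7.41e-04). Tnc, tenascin C, and Has2, which makes hyaluronan, rose (log2-fold changes 1.60, FDR = 0.0111 and 1.83, FDR = 0.00142), the call of Tnc being lost without mouse 5. Tnxb, tenascin X, and Sparcl1 fell (log2-fold changes −3.01, FDR = 1.53e-06 and −1.91, FDR = 4.23e-05), and Fn1, fibronectin, had a log2-fold change of 0.12 (FDR = 0.679) and was no DEG. Of 15 tested integrin subunits 5 rose, Itga5 (log2-fold change 1.72, FDR = 2.24e-04) and Itga2 (log2-fold change 1.57, FDR = 0.0148) the most, and 1 fell. Without mouse 5 there were 2 rises and Itga2 was not called. Matrix proteases and their inhibitors had 14 of 22 tested members lower and 1 higher, among them Htra3 (log2-fold change −3.44, FDR = 1.77e-06) and Mmp11 (log2-fold change −2.02, FDR = 1.28e-05).

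Of 17 tested fibrinolysis and coagulation genes 3 rose and 5 fell. Serpinb2, a serine protease inhibitor on chromosome 1, 107511423 to 107535478 of GRCm38 and one of the largest rises, had 9 counts over the 6 control libraries together and 1197 over the 6 stimulated ones, and was higher in every mouse. Gas6, a vitamin K-dependent ligand of the Axl receptor, fell from a median of 1549 FPM (1256 to 4844) to one of 274 FPM (98.5 to 1089.9) without overlap (log2-fold change −2.82, SE 0.359, FDR = 9.19e-07). Serping1, the C1 inhibitor, fell (log2-fold change −2.31, FDR = 6.05e-06) and is also in the complement list. Of 15 tested complement genes 7 fell and 1 rose, with a median of −1.53 and within-mouse medians of −1.13, −1.42, −1.13, −1.13, −1.38 and −0.26. C2, a protease of the classical pathway, fell (log2-fold change −2.27, FDR = 6.96e-06), and Cd59a, which blocks the membrane attack complex, rose (log2-fold change 1.09, FDR = 0.0327) in 4 of 6 mice and lost its call without mouse 1, 2 or 5.

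Of 26 tested FOXO factors and targets known from resting cells, 13 fell and 3 rose, and without mouse 2 there were 8 falls. Klf15, a Krüppel-like factor that restrains smooth muscle growth, was at 20.1 to 35.8 FPM (median 30.5) in control and 4.12 to 8.10 FPM (median 6.39) in EGF+U46619 cultures, with no overlap (log2-fold change −2.27, SE 0.228, FDR = 6.31e-08). Klf4, a factor of phenotypic switching, had a log2-fold change of −0.01 (FDR = 0.984) and was no DEG. Pik3ip1, an inhibitor of PI3 kinase, fell (log2-fold change −1.97, FDR = 4.20e-05), and Sgk1, a kinase that inactivates FOXO factors, rose from a median of 55.3 FPM (49.2 to 89.5) to one of 279 FPM (103 to 519) without overlap (log2-fold change 2.14, SE 0.282, FDR = 1.53e-06). Retinol and retinoic acid metabolism had 10 of 19 tested members lower and 0 higher, and Adh1, which oxidises retinol, fell from a median of 23.1 FPM (5.98 to 132) to one of 1.11 FPM (0.257 to 15.5) (log2-fold change −4.04, SE 0.668, FDR = 2.36e-05). Of 15 tested ABC transporters 6 fell and 0 rose, among them Abca8a (log2-fold change −3.45, FDR = 6.27e-05), and the other 3 genes of their list, which are no transporters, fell too, among them the lipase gene Lpl (log2-fold change −2.34, FDR = 7.33e-06). Antioxidant genes were divided, with 6 of 24 higher and 9 lower: Gstt1 and Gstm1, glutathione transferases, fell (log2-fold changes −3.13, FDR = 2.76e-06 and −2.39, FDR = 1.66e-05), and Txnrd1, thioredoxin reductase, rose (log2-fold change 1.25, FDR = 2.41e-06), all 3 without overlap. Genes of families with near-identical copies, such as Abca8a, Gstm1 and the H2-M genes, can share reads.

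Genes for signals that the cells send or receive changed in both directions. Of 23 tested cytokine, chemokine and cytokine receptor genes, 6 rose and 3 fell. Il1rl1, the IL-33 receptor, and Lif, an IL-6 family cytokine, rose (log2-fold changes 4.28, FDR = 8.95e-07 and 1.70, FDR = 2.53e-04), while the IL-1 antagonist Il1rn (log2-fold change −1.01, FDR = 0.0323) and Cxcl16 (log2-fold change −0.73, FDR = 0.0358) fell. The call of Il1rn was lost without mouse 1, 3, 4 or 5 and that of Cxcl16 without any one of mice 1 to 5, and none of the 3 falls was called without mouse 4 or 5. Il6 itself rose (log2-fold change 1.12, FDR = 0.0375), higher in 6 of 6 mice, but lost its call without mouse 1, 4, 5 or 6. In the TGF-beta, ID and BMP list, 7 of 31 tested members rose and 9 fell. Inhba, a subunit of activin, rose (log2-fold change 1.98, FDR = 4.01e-07), whereas Gdf10 and Id4 fell (log2-fold changes −4.59, FDR = 8.14e-05 and −2.27, FDR = 3.43e-06), the call of Gdf10 being lost without mouse 1 or 5. WNT and Notch genes had 7 of 31 tested members lower and 0 higher, the secreted antagonists Dkk3 and Sfrp2 falling (log2-fold changes −1.97, FDR = 1.67e-06 and −1.91, FDR = 0.00307).

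To place the combination beside its components, the EGF+U46619 cultures were compared directly with cultures that received only 1 of the substances. Against EGF alone 1877 genes differed, 981 higher (6.75% of those tested) and 896 lower (6.17%). Among them, 41 of 46 ribosome biogenesis genes and 18 of 33 glycolysis and hypoxia genes were higher than with EGF alone, and 7 of 11 small leucine-rich proteoglycans and 12 of 22 matrix proteases and inhibitors were lower. Of the DNA replication list 1 gene and of the spindle list 0 genes differed from EGF alone. The number over all genes was 724 without mouse 2 and 2646 without mouse 3. Spry4 was lower than with EGF alone (log2-fold change −1.71, SE 0.487, FDR = 0.0147), and Acta2 was higher (1.99, SE 0.398, FDR = 0.00102).

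Against U46619 alone no DEG was found (0% of genes tested), while edgeR and DESeq2 both gave 363 genes a p under 0.05 before adjustment, with 0 at an FDR under 0.05 in edgeR and 14 in DESeq2 alone. The interval of the difference shows what remains possible for single genes. For Klf15 the log2 difference of EGF+U46619 minus U46619 was −0.77 (95% interval −1.20 to −0.33), for Spp1 1.30 (95% interval −0.03 to 2.63) and for Ccnd1 0.64 (95% interval 0.14 to 1.14), all with an FDR of 1. For Ankrd1 it was 0.01 (95% interval −1.12 to 1.14), for Acta2 −0.43 (95% interval −1.17 to 0.31) and for Mcm5 0.22 (95% interval −0.58 to 1.01). An FDR over the threshold does not show that the cultures were alike, and each of these 6 intervals reaches beyond a size of 1 on the log2 scale.

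The same genes in the other incubations are given side by side, since all 3 comparisons share the control cultures. The log2-fold change of Ankrd1 was 1.09 with EGF, 4.50 with U46619 and 4.51 with both. That of Acta2 was −0.37, 2.05 and 1.62, and that of Klf15 −0.79, −1.504 and −2.27. For Spry4 they were 2.13, 0.05 and 0.42, and for Mcm5 1.55, 1.79 and 2.01. The median of the DNA replication list was 1.11, 1.19 and 1.47 in the same order, and that of the ribosome biogenesis list 0.23, 0.79 and 0.91.

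**Figure D4:**
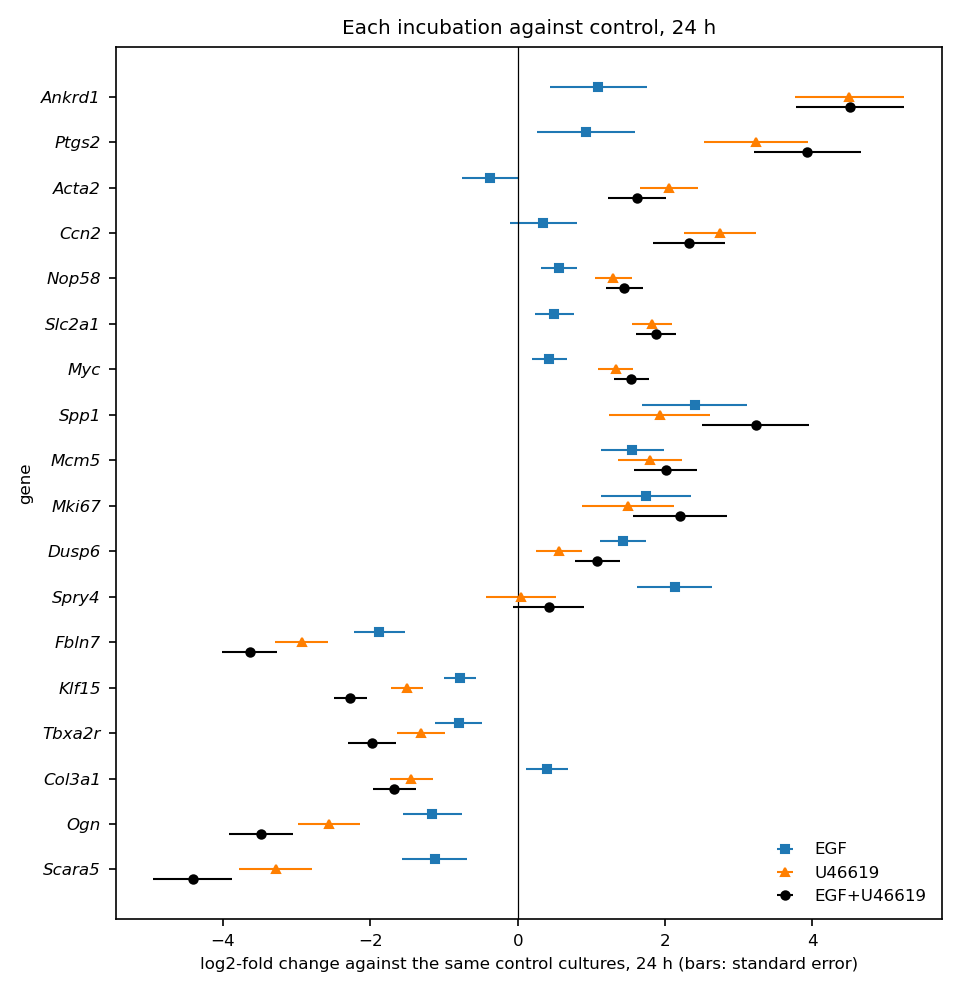
Log2-fold change against control after 24 h with EGF, U46619 or both, for 18 genes, with the standard error from edgeR (n = 6 mice, shared control cultures). Spry4 is at 2.13 with EGF and 0.42 with both, and Ankrd1 at 1.09 with EGF and 4.51 with both.

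After 48 h the same pair of incubations was available in other cultures, 5 with EGF+U46619 and 10 controls, which carry 4 and 5 mouse numbers, so that some cultures of a group share a mouse number (up to 2 and 5). They were sequenced in other batches and normalised and fitted apart from the 24 h libraries, with mouse number as the block. All 5 EGF+U46619 cultures and 5 of the controls were in the batch of EGF and U46619. The other controls were in the batch of EGF and angiotensin II, and batch was no term of the fit. In this 48 h fit, 558 genes (3.84%) were higher and 437 (3.01%) lower. Of the 4655 DEG after 24 h, 798 (17.1%) were DEG in the same direction after 48 h, which is 80.2% of the 995 DEG at that time, and 1 was a DEG in the opposite direction, Parva (log2-fold change 0.36 after 24 h and −0.31 after 48 h). The log2-fold change had the same sign at both times for 88.1% of the 24 h DEG. Of the ribosome biogenesis genes 21 were higher after 48 h, of the cholesterol and fatty acid synthesis genes 11, and of the DNA replication and spindle genes 1 each. Of the small leucine-rich proteoglycans 4 were lower, with a list median of −2.56. The count of DEG after 48 h was 3770 within the batch of EGF and U46619 with culture set as block, and 362 without culture set 3.

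**Figure D5:**
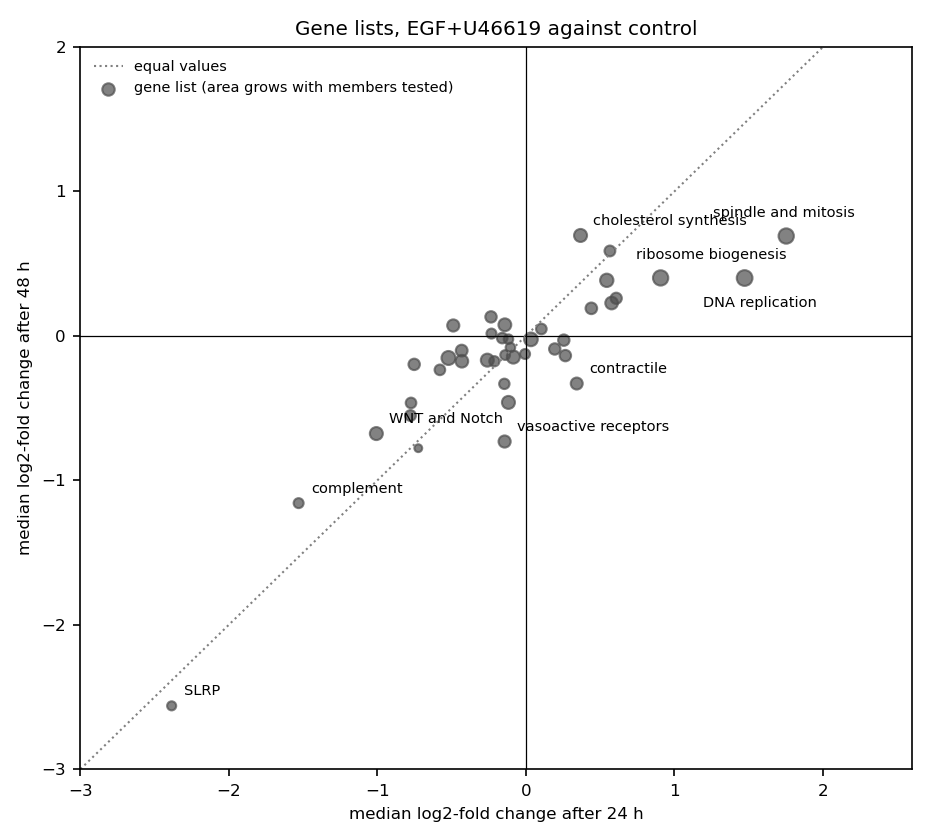
Median log2-fold change of each gene list, EGF+U46619 against control, after 24 h (horizontal axis) and 48 h (vertical axis), fitted separately in different cultures. The small leucine-rich proteoglycans lie at −2.39 and −2.56, DNA replication at 1.47 and 0.40, and the contractile list at 0.34 and −0.33.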

How the data were processed

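Poly(A)-selected RNA of 12 cultures was sequenced, 1 control and 1 EGF+U46619 culture from each of 6 mice. The deposited values are read counts per gene: the authors aligned paired-end reads to mm10 with HISAT2 2.1.0 and summed them over exons (featureCounts), where a read with several alignments also counts, so near-identical genes share counts. Strandedness is not given in the sources used here, so overlapping and antisense genes cannot be told apart. Genes of chromosomes 9, X, Y and MT were listed at 0 in all 24 h libraries, 7075 genes, and were left out. Some list members on other chromosomes, among them Itgb1 and Cox4i1, did not pass the filter on low counts and were not tested. Whether they were low in the cells or only in the counts was not tested. The total count per library was 19170622 to 20594473.

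The design followed the study's methods. edgeR 4.0.16 (filterByExpr, TMM, quasi-likelihood test) and DESeq2 1.42.0 in R 4.3.3 were fitted to all 42 libraries of the 24 h incubation with mouse and treatment as terms. Of 14653 genes fitted, 14528 passed the filter at both time points. A DEG needed an FDR under 0.05 from each tool and 5 FPM or more as the mean of either group. SEs were derived from the edgeR fold change and F statistic, and 95% intervals are normal ones on these SEs. Ratios within a mouse used a pseudocount of 0.5 FPM. Python 3.11.15 with pandas 2.3.3 and Matplotlib 3.10.9 served for lists and plots. After 24 h the mouse number pairs the cultures, since the 6 replicates are from different mice: deviations from the group means correlated at 0.565 to 0.732 within the 6 mice and at most at 0.217 between mice. By a chi-square comparison of counts none of the 66 pairs of the 12 libraries was within sampling noise. Libraries of 1 mouse are separate cultures. After 48 h the labels give several culture sets the same mouse number, although the study's methods name a different mouse for each replicate, and mouse number was the block there, with culture set as an alternative.

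The members, gene lists and tests were chosen with earlier results of these data known. Named genes are 34 key genes, the 12 largest rises and 12 largest falls among DEG changed the same way in all 6 mice, and up to 2 rises and 2 falls per list, of which a few are not reported here. No test of gene sets was made. On simulated counts of this comparison (14461 genes, 200 changed), the calls recovered 15 of 66 genes set to a 1.5-fold change, 41 of 67 set to 2-fold and 47 of 67 set to 4-fold, with 0 of these of the wrong sign, and 9 of the 112 calls fell on unchanged genes. Each changed gene had the same fold in every mouse, and the other incubations were left unchanged. The simulation therefore does not cover changes that differ between mice or a response of as many genes as were called here. Alternatives were limma 3.58.1, each tool alone, other scaling and filters, no mouse term, only the 12 libraries, and each mouse left out. Promoters come from a RefSeq table (GRCm38.p6), searched on both strands for CACGTG (E-box), TGANTCA (AP-1), GGAATG (TEAD), TTTCCCGC (E2F) or TTTGGCGC (E2F), CCAAT, TCACNCCAC (SREBP), TTATGNAA and the CArG box.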

Additional observations from a re-analysis of the deposited data

Results flagged for a closer look

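For the within-mouse log2 ratios of 41 list medians and the named genes, and for the library totals of both groups, the mouse farthest from the others was compared with Dixon's critical value for 6 values, which chance exceeds in about 1 in 20 groups. In all 210 groups of values were compared, so the 12 given here are near the number chance gives. For 3 list medians 1 mouse stood apart: the MYC and MAX network in mouse 1 (−0.52, others −0.02 to 0.25), fibrinolysis and coagulation in mouse 1 (−0.70, others −0.19 to 0.04) and complement in mouse 6 (−0.26, others −1.42 to −1.13). Among genes, Tbxa2r fell least in mouse 6 (−0.46, others −2.66 to −1.92), and Gucy1a1, a subunit of the nitric oxide receptor, was at 0.44 in mouse 3 and −2.33 to −1.83 in the others. Mouse 2 stood apart for Myh11 (1.59, others −1.08 to −0.44), Klf4 (−1.89, others −0.06 to 0.87), P2ry2 (1.77, others 0.76 to 0.97) and the chaperone gene Dnajb9, whose call was lost without mouse 2 (−1.27, others −0.45 to −0.24). Mouse 1 did for Il6 (2.17, others 0.36 to 1.02), Slc7a11 (4.45, others 0.80 to 2.06) and Il1rn (−2.94, others −1.11 to −0.12).

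Acta2 and Actg2 were higher in the EGF+U46619 culture of every mouse after 24 h and lower in that of every culture set after 48 h, with log2-fold changes after 48 h of −0.49 and −1.38. The 5 culture sets carry 4 mouse numbers, and these 48 h log2-fold changes come from the fit with controls of both 48 h batches. The difference between the times was not tested, since the libraries were made and normalised separately, and the 2 genes can share reads.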

How the results depend on the processing

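The 4655 DEG against control were 1826 with no replicate block, that is without the mouse term (1085 higher and 741 lower), 3081 when only the 12 libraries were fitted (1498 higher), and 3418 to 4839 when 1 mouse was left out (1723 to 2486 higher, 1675 to 2415 lower). Of the 1826, 1822 were among the 4655. Other tools, tests, scalings and filters gave 4034 to 5545. The 1877 DEG against EGF were 105 with no replicate block and 724 (without mouse 2) to 2646 (without mouse 3) with 1 mouse left out. Against U46619, DESeq2 alone gave 8 DEG and every other alternative 0, leaving out mice included (0 to 0). The fit of only the 12 libraries has no value for these 2 comparisons, since the single incubations are not in it. After 48 h the 995 DEG were 6.85% of the genes tested. This share was 25.9% in the batch of EGF and U46619 with culture set as replicate block (3770 DEG), 1.30% with no replicate block, and 2.49% (362 DEG, without culture set 3) to 6.13% (891, without culture set 1) with 1 set left out, with 615 DEG without set 2 and 587 without set 4. The causes were not tested. Of 53 counts of list members, 45 moved by over 1.5 times with no replicate block, 13 with only the 12 libraries, and 1 to 9 with 1 mouse left out. None of the named genes reversed under any alternative run, and 75 were no longer called with no replicate block. Genes at low levels were called less often. With no FPM minimum 16.6% of 2198 genes under 1 FPM were called, against 44.6% of 2027 genes of at least 100 FPM. The part of depth in this was not tested.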

Other observations

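Genes of cyclic nucleotide and natriuretic peptide signalling had 4 of 29 tested members higher and 6 lower, with 3 falls without mouse 5. Nppb, the B-type natriuretic peptide, and Prkg2, a cGMP-dependent kinase, rose (log2-fold changes 4.13, FDR = 4.00e-04 and 2.93, FDR = 3.51e-04), while Gucy1a1 and the adenylyl cyclase gene Adcy5 fell (log2-fold changes −2.49, FDR = 7.85e-05 and −1.58, FDR = 2.66e-04). The call of Nppb was lost without mouse 2, of Adcy5 without mouse 1 and of Gucy1a1 without mouse 5 or 6. Of 31 tested genes of calcium handling and membrane channels 2 rose, Kcnj15 (log2-fold change 2.26, FDR = 0.00264) and the IP3 receptor gene Itpr3 (log2-fold change 0.68, FDR = 0.00125), and 5 fell, among them the calcium pump gene Atp2b4 (log2-fold change −1.54, FDR = 2.44e-04). The call of Kcnj15 was lost without mouse 2. Of 6 tested granin and secretory genes, Vgf rose from a median of 1.21 FPM (0.0599 to 1.83) to one of 15.6 FPM (5.16 to 34.3) without overlap of the groups, and 3 fell, among them Scg2 (log2-fold change −2.87, FDR = 3.84e-07).

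Genes of growth factors, their receptors and binding proteins had 5 of 30 tested members higher and 8 lower. Fgf2 and Bdnf rose (log2-fold changes 1.13, FDR = 3.46e-05 and 1.11, FDR = 6.94e-04), and Fgf18 and the IGF binding protein gene Igfbp4 fell (log2-fold changes −3.04, FDR = 2.80e-04 and −2.43, FDR = 1.42e-04). Of 22 tested chaperones, folding enzymes and stress sensors of the endoplasmic reticulum 8 rose, 4 without mouse 1, and 2 fell. Ero1l, an oxidase that forms disulfide bonds, and Atf6, a sensor of unfolded proteins, rose (log2-fold changes 1.18, FDR = 1.57e-06 and 1.15, FDR = 7.04e-05). Nuclear genes of oxidative phosphorylation had 4 of 35 tested members higher, 1 without mouse 2, and a median log2-fold change of 0.03. Of 18 tested clock genes 2 rose, Bhlhe40 and Nr1d2, and 2 fell, Per3 and Tef (log2-fold changes 0.66, 0.57, −0.83 and −0.57), and the calls of Nr1d2, Per3 and Tef were each lost without 2 or 3 single mice. Among Krüppel-like factors 4 of 13 fell and 0 rose, with 2 falls without mouse 2.

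The share of genes called differed with the kind of gene. Of 12061 protein-coding genes tested 36.7% were DEG, 2208 higher and 2213 lower. Of 1023 processed pseudogenes 127 were higher and 21 lower, and many such copies can hold reads of their parent genes. Of 331 lincRNA genes 7 were higher and 10 lower, and of 359 antisense genes 2 and 12. With no minimum of FPM, an FDR under 0.05 in both tools was reached by 16.6% of genes with a mean under 1 FPM, 33.7% of those of 1 to 5 FPM, 42.9% of those of 5 to 20 FPM and 44.6% of those of at least 100 FPM.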
